A study of Mus musculus and Homo sapiens with 20 samples.

Results

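The genes that encode the subunits of Polycomb repressive complex 2 (PRC2) were examined for the 2 histone marks of the Polycomb system. The 9 members were chosen by gene symbol, by a rule with no threshold on cover: the core genes Ezh2, Ezh1, Eed and Suz12 and the accessory genes Jarid2, Aebp2, Mtf2, Phf19 and Phf1. All 9 were found among 21938 protein-coding mouse genes (mm10), and their 9 human orthologues were found among 20033 protein-coding human genes (hg38). For each gene, the percent of the promoter (the annotated gene start and 1 kb on each side, 2001 bp) and the percent of the gene span under called peaks were measured in every library.

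PRC2 places the trimethyl mark H3K27me3 on histone H3. EZH2 or EZH1 is its catalytic subunit, SUZ12 is the scaffold, and EED binds the trimethyl mark and stimulates the enzyme. The accessory subunits define alternative forms of the complex, with the Polycomb-like proteins PHF1, MTF2 or PHF19, which bind CpG-rich DNA and methylated histone H3, in some forms, and JARID2 and AEBP2, which can recognise H2AK119ub, in others. H2AK119ub is a ubiquitin on histone H2A that is placed by Polycomb repressive complex 1, and both marks often share the CpG-rich promoters of developmental genes.

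The study mapped both marks by CUT&Tag, in which an antibody directs a transposase to cut and tag the DNA around a chromatin mark. The 20 libraries formed 10 groups of 2. Mouse embryonic stem (mES) cells, wild type (WT) or Tet2 knockout (KO) and cultured with LIF, CHIR99021 and PD0325901, and haematopoietic stem and progenitor cells (HSPCs), the lineage-negative c-Kit+ fraction of bone marrow from mice of 6 to 8 weeks that were WT or Tet2-/-, were each profiled for H2AK119ub and H3K27me3. K562, a human leukaemia cell line, was profiled for H2AK119ub after nucleofection of a control siRNA (siControl) or an siRNA to MBD6 (siMBD6), a methyl-CpG-binding-domain protein. TET2 oxidises 5-methylcytosine, and the comparisons ask whether its loss, or that of MBD6, changed where the marks lay. The labels do not say whether the KO mES cells were more than 1 clone, whether bone marrow of several mice was pooled, or whether replicates were separate cultures or animals, so that p-values measure the spread between libraries, which may be technical. HSPCs are a mixed fraction, and a peak there can come from all cells or from a share of them. The paper states that male and female mice were used, and the sex behind each HSPC library is not given here. Genotype and sex therefore cannot be told apart in the HSPC comparisons.

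The lists held 85098 to 167326 peaks and covered 132 to 259.9 Mb. They give positions without counts or scores, so read depth is unknown, and an absent peak says only that none was called. Between 30.4% and 41.4% of peaks per list were exactly 501 bp wide, and 1 such peak inside a promoter window covers 25.04% of it. The labels of the H3K27me3 libraries were checked at promoters of marker genes. Peaks do not measure transcripts, and this check is of chromatin alone. The median cover of 6 mES cell markers, among them Pou5f1, Nanog and Sox2, was 0% in every mES library and 100% in every HSPC library, where Zfp42 and Dppa5a had no peak. That of 6 HSPC markers, among them Kit, Spi1 and Gfi1b, was between 68.8% and 82.5% in the mES lists and between 4.57% and 15.9% in the HSPC lists, and Ptprc had no peak in either. For H2AK119ub the same markers went the other way, so that mark gave no such check of its libraries. The mES markers had medians of 48.9% to 54.8% in mES libraries and 8.22% to 37.2% in HSPC libraries. The HSPC markers had 57.4% to 72.3% in mES libraries and 75.1% to 84.2% in HSPC libraries.

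The members that differed most in cover both had CpG-rich starts. The reference windows of RefSeq (GRCm38.p6, 250 bases before to 50 after a start) held 13 windows for the 9 members, with a median of 7 CG dinucleotides over all 32851 windows. Suz12 had 41 CG dinucleotides in its window, the highest among the members, followed by Phf19 with 38, Ezh2 with 31 and Mtf2 with 30, which has a second window with 2. Jarid2 had 24 and 23 in its 2 windows, Phf1 24, Ezh1 23 and Eed 17. Aebp2 had 21 in 1 of its 3 windows and 4 in each of the others. The 4 sequences shown here are exon-free stretches before the starts of the 2 pairs of members, with no gene in both, that differed most in promoter cover over the 16 mouse libraries among genes with at least 100 exon-free bases. They are written 5′ to 3′ on the gene's strand with CG dinucleotides in capitals. The mean cover was 10.6% for Mtf2 (chr5:108065424-108065673, plus strand, 23 CG in 250 bases) and 94.4% for Phf19 (chr2:34914027-34914215, minus strand, 24 CG in 189 bases). It was 30.1% for Ezh1 (chr11:101226464-101226713, minus strand, 14 CG in 250 bases) and 56.1% for Phf1 (chr17:26932877-26933051, plus strand, 18 CG in 175 bases).
Mtf2: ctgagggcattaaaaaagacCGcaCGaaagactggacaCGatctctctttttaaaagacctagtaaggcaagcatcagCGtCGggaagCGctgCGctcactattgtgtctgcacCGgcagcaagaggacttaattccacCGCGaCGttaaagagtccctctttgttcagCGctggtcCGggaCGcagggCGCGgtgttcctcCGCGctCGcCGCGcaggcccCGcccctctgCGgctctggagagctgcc
Phf19: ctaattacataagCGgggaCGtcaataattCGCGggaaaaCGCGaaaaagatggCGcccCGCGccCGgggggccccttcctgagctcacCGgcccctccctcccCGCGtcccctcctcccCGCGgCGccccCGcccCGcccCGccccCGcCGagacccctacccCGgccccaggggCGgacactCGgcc
Ezh1: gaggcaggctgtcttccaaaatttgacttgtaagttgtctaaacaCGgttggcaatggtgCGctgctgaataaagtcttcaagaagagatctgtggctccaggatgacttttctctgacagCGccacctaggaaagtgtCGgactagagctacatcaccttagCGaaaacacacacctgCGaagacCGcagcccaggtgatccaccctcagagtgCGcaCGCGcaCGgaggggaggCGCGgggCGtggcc
Phf1: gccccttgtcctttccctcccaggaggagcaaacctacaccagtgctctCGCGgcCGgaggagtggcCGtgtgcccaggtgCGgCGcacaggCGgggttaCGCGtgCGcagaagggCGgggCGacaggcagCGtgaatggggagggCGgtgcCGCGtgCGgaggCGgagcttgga

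Mtf2, which had the least cover of all members, had 23 CG dinucleotides in its stretch of 250 bases, with a GC content of 59.2%. Phf19, which had the most cover, had 24 in a shorter stretch of 189 bases, with a GC content of 74.1%. In RefSeq windows of equal length Phf19 had 38 and Mtf2 had 30 in the richer of its windows. Suz12, whose window held the most CG dinucleotides, had no peak at its promoter in 6 of the 8 mES libraries, whereas Phf19 was covered in all 8. In HSPCs both promoters had a peak in every library. Whether CG content has a part in the cover was not tested.

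Phf19 stood apart from the other members. Phf19 (ENSMUSG00000026873.9; mm10 chromosome 2, 34893757 to 34914026, minus strand) encodes a Polycomb-like subunit that binds methylated histone H3. Its promoter was under peaks over 100% of its length in all 8 H2AK119ub libraries of both cell types and in all 4 H3K27me3 libraries of mES cells. No other member had H3K27me3 peaks over more than 31.5% of its promoter in mES cells. In HSPCs the H3K27me3 cover of the Phf19 promoter was 100% and 70.4% in the WT libraries and 97.6% and 43.2% in the KO libraries, so that the genotypes overlapped.

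The marks also ran through the body of Phf19. In mES cells H2AK119ub covered 77.5% and 77.9% of the gene span in WT cells and 80.6% and 77.99% in KO cells. H3K27me3 covered 83.3% and 90.98% in WT cells and 85.2% and 65.3% in KO cells, the last being the lowest of the 8 values. The bases under peaks of both WT replicates amounted to 15132 bp for H2AK119ub and 16862 bp for H3K27me3 in mES cells, of which 14732 bp were shared. The widest single H3K27me3 peak that touched the gene in WT mES cells was 9218 bp in replicate 1 and 12124 bp in replicate 2. Exons and introns were both covered: H3K27me3 in WT mES cells lay over 85.7% and 96.4% of exonic and 82.5% and 89.2% of intronic bases. Among all protein-coding genes, the H3K27me3 cover of the Phf19 span was at the 92.1 to 93.2 percentile in the 4 mES libraries.

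**Figure D1:**
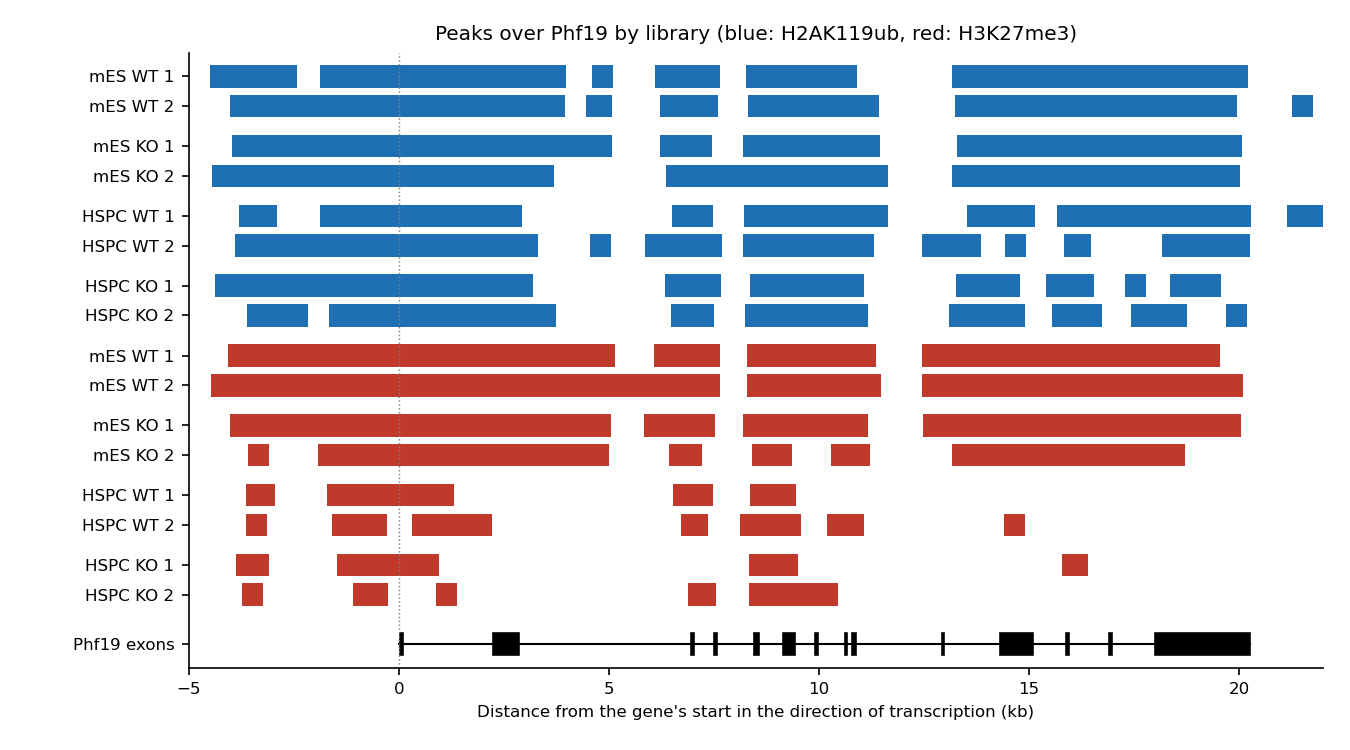
Peaks called over Phf19 in the 16 mouse libraries, 1 line per library, plotted by distance in kb from the gene's start in the direction of transcription, with H2AK119ub in blue, H3K27me3 in red and the annotated exons in black. In mES cells both marks cover most of the gene, whereas in HSPCs H3K27me3 peaks cover 13.6% to 26.6% of it in shorter peaks.

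In HSPCs the marks parted over the body of Phf19. H3K27me3 covered 16.5% and 26.6% of the span in WT cells and 13.6% and 16.3% in KO cells, all below the 4 mES libraries. H2AK119ub still covered 66.8% and 66.2% in WT cells and 57.5% and 61.8% in KO cells. Of the bases under H3K27me3 peaks of both WT replicates in HSPCs, 2749 bp, all lay under H2AK119ub peaks as well, which held 10584 bp. For H3K27me3 the mean was 18.2% ± 5.71 in HSPCs and 81.2% ± 11.1 in mES cells (SD, n = 4 each), a difference of -62.95 percentage points. A two-sided exact test that permuted libraries within genotype gave p = 0.0556, the lowest value 36 arrangements allow, and an adjusted p of 0.116 over all genes. For H2AK119ub the mean was 63.1% ± 4.34 in HSPCs and 78.5% ± 1.42 in mES cells (SD, n = 4 each), a difference of -15.4 points (exact p = 0.0556, adjusted p = 0.122), which was -7.44 points when peaks within 1 kb were joined. The neighbourhood of 1 Mb on each side of the start also held less H3K27me3 in HSPCs, 6.78% to 10.2% against 12.3% to 21.4% in mES cells, and its part in the difference was not tested.

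The core genes Eed and Suz12 and the accessory gene Mtf2 showed another pattern, with fewer peaks in mES cells than in HSPCs. Eed (ENSMUSG00000030619.9; mm10 chromosome 7, 89954654 to 89980983, minus strand) and Mtf2 (ENSMUSG00000029267.17; mm10 chromosome 5, 108065674 to 108109004, plus strand), which encodes a CpG-binding Polycomb-like subunit, had no peak of either mark anywhere in the gene in any of the 8 mES libraries. The nearest peak lay at least 44091 bp from the Eed start and at least 45541 bp from the Mtf2 start. Of all promoters, 66.8% to 67.8% had an H2AK119ub peak and 36.5% to 49.4% an H3K27me3 peak in a single mES library. An uncovered promoter was thus common, and the share of genes without a peak in all 8 libraries is not reported here. In mES cells Suz12 (ENSMUSG00000017548.15; mm10 chromosome 11, 79993106 to 80034123, plus strand) had no H3K27me3 peak at its promoter, and a H2AK119ub peak covered 25.04% of it in WT replicate 2 and 33.4% in KO replicate 2, with 0% in the other libraries.

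In HSPCs all 3 promoters carried H2AK119ub. It covered 73.2% and 46.2% of the Eed promoter in WT cells and 73.5% and 75.3% in KO cells. For Suz12 the cover was 72.8% and 43.2% with Tet2 and 98.8% and 93.9% without it. For Mtf2 it was 33.2% and 34.8% with Tet2 and 31.7% and 44.7% without it. All 4 HSPC libraries were above all 4 mES libraries for each gene. H3K27me3 peaks in HSPCs covered 37.3% and 61.1% of the Eed promoter in WT cells and 63.2% and 39.9% in KO cells. At Suz12 they covered 25.04% and 52.7% in WT cells and 32.1% and 47.6% in KO cells. The 4 mES libraries had 0% at both genes. At Mtf2 a single H3K27me3 peak was called, in KO replicate 1, over 25.04% of the promoter.

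These peaks covered the gene start and were short at Eed and Mtf2. In every HSPC library the peak at Eed covered the start, and the H2AK119ub peaks were 925 to 1574 bp wide and the H3K27me3 peaks 746 to 1265 bp. At Mtf2 the H2AK119ub peaks were 634 to 895 bp wide. Those at Suz12 were 1938 and 865 bp in WT cells and 2562 and 2456 bp in KO cells, reaching upstream beyond the promoter window in 3 of the 4 libraries, and its H3K27me3 peaks were 501 to 1054 bp. The peaks covered 0.561% to 4.22% of the spans of these 3 genes for H2AK119ub, all of it in the peak at the start.

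**Figure D2:**
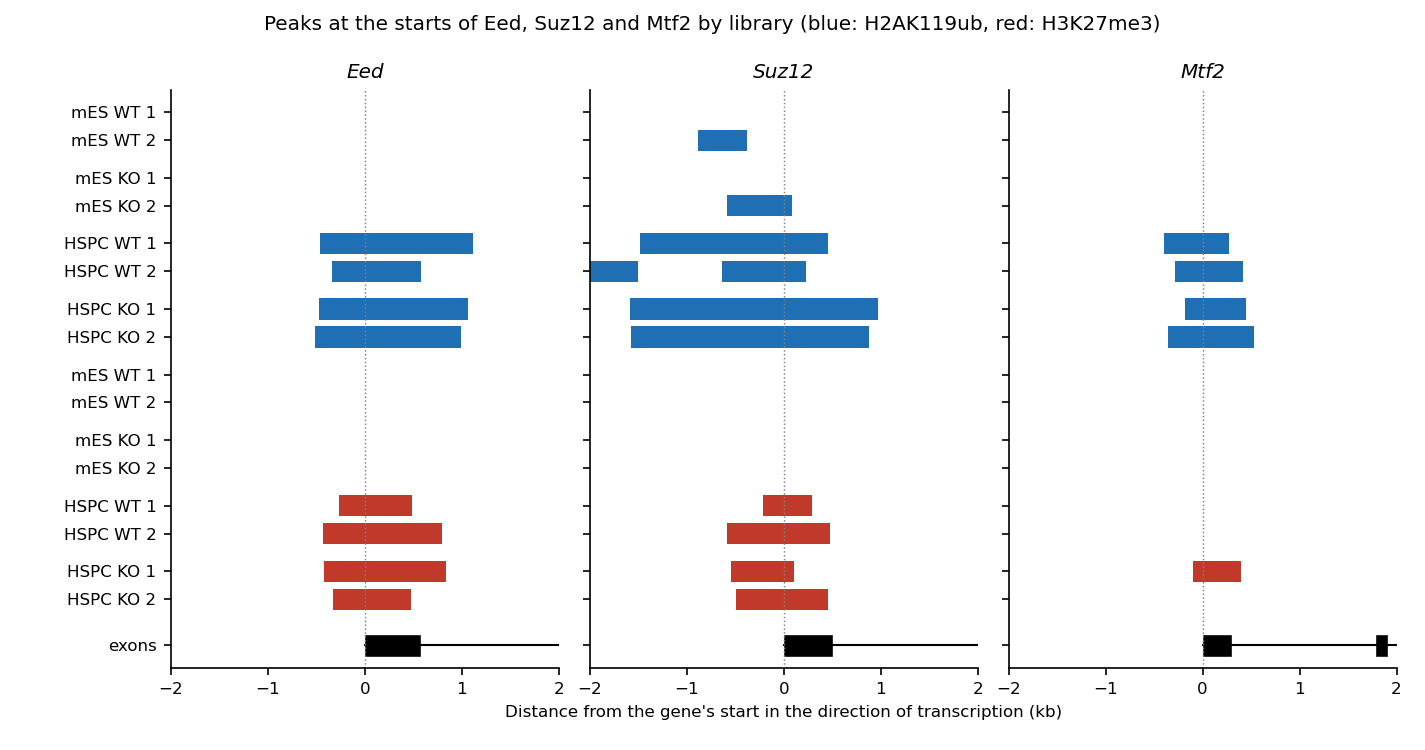
Peaks called within 2 kb of the starts of Eed, Suz12 and Mtf2 in the 16 mouse libraries, 1 line per library, plotted by distance in kb from the start in the direction of transcription, with H2AK119ub in blue, H3K27me3 in red and exons in black. The mES lines are empty except for Suz12 in 2 H2AK119ub libraries, and every HSPC line holds a peak at Eed and Suz12.

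Across the members, HSPC and mES libraries were compared within genotype. A difference was called separated when no library of one side overlapped the other and the means differed by at least 10 percentage points. For H2AK119ub promoters, 5 of 9 members were separated and higher in HSPCs and none was lower. Among all protein-coding genes, 15.4% were separated higher and 8.46% lower. The members were Eed (by 67.04 points), Suz12 (62.5), Mtf2 (36.1), Phf1 (23.7) and Ezh2 (23.1), and the median difference over the 9 members was 23.7 points, against 0 over all genes. For H3K27me3 promoters, 3 members were separated and higher, Eed by 50.4, Phf1 by 48.2 and Suz12 by 39.4 points, against a background of 22.7% higher and 8.64% lower. The median difference over the 9 members was 19.8 points, against 0 over all genes. On the gene span, Phf1 was higher and Phf19 lower for both marks, against 11.4% of genes higher and 14.2% lower for H2AK119ub, and 12% higher and 11.9% lower for H3K27me3. Each of these separated differences had the smallest possible exact permutation p of 0.0556, with adjusted p between 0.116 and 0.199, and no gene passed 0.05.

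Promoters of widely expressed genes differed in the same direction, and their part in the members' difference was not tested. Of 12 such genes (Actb, Gapdh, Polr2a and others), 7 to 10 had an H2AK119ub peak at the promoter in mES libraries and 12 in HSPC libraries, and 1 to 4 had an H3K27me3 peak in mES libraries and 9 to 11 in HSPC libraries. Of 12 Polycomb targets such as Pax6, Gata4 and Olig2, all had both marks in mES cells, and 10 to 12 had H2AK119ub and all had H3K27me3 in HSPCs. Cell type, culture and library set differed together here and cannot be told apart, and with only peaks of at least 1 kb the separated members were 1 rather than 5 for H2AK119ub promoters and 0 rather than 3 for H3K27me3 promoters.

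**Figure D3:**
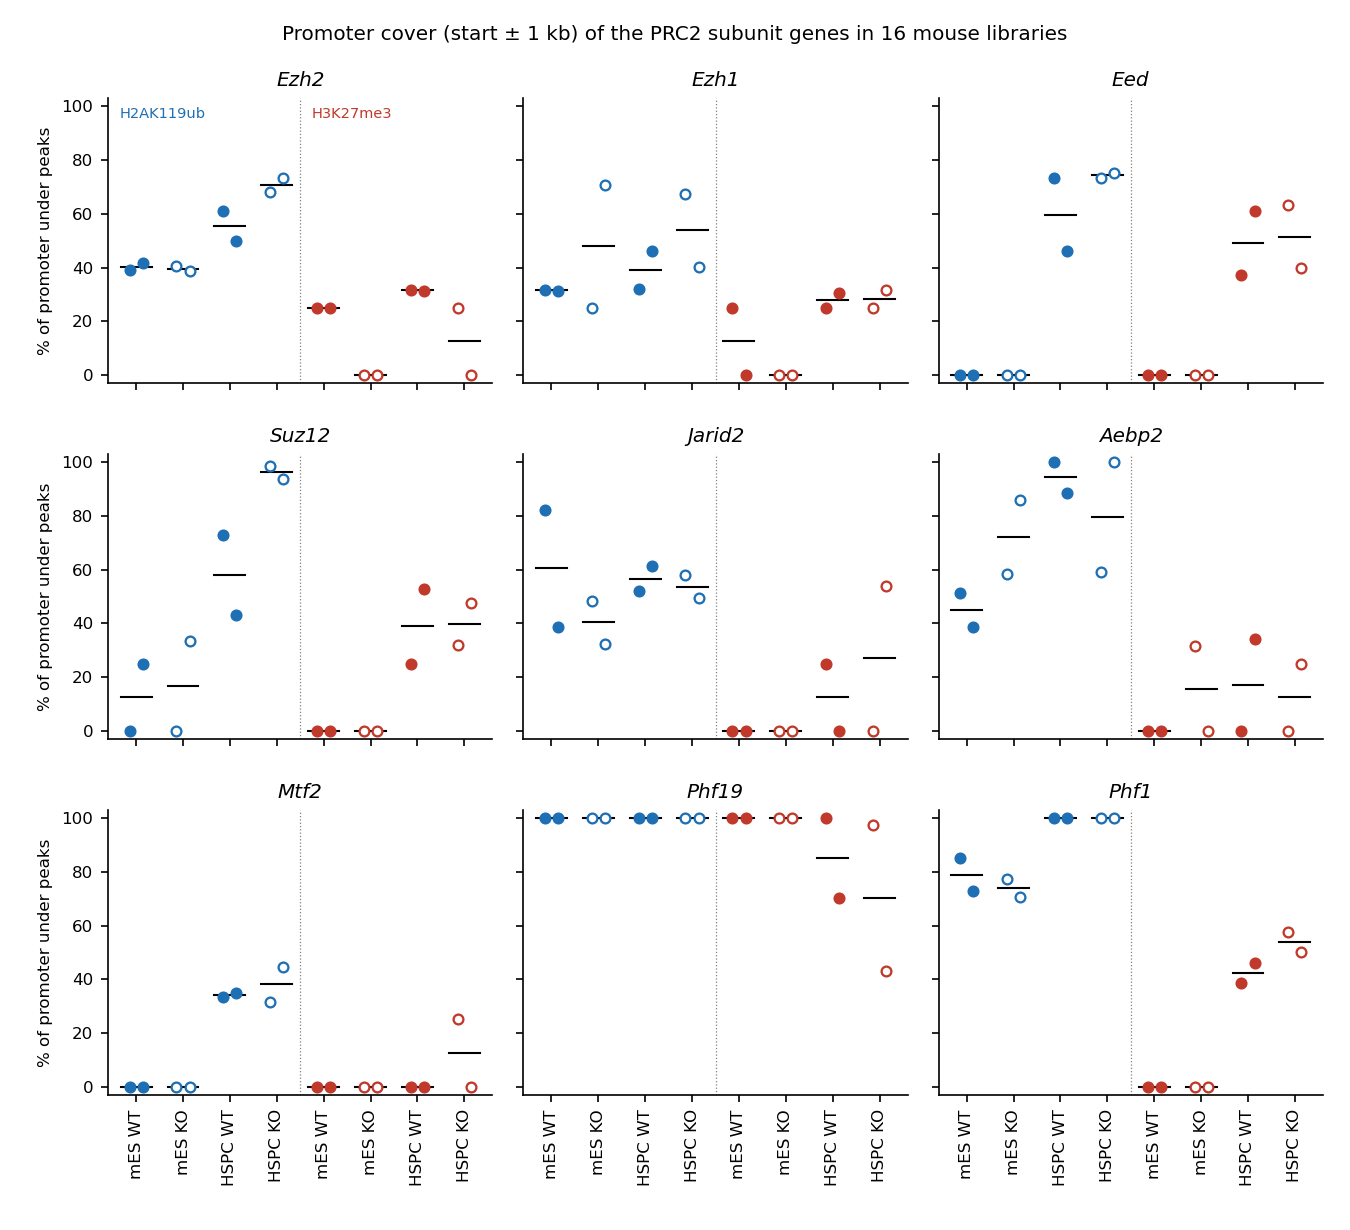
Percent of the promoter (start ± 1 kb) under peaks for each of the 9 members, with H2AK119ub in blue on the left of each panel and H3K27me3 in red on the right. Points are libraries, filled for WT and open for KO, and bars are means of 2 libraries. Phf19 lies at 100% for H2AK119ub throughout, Eed and Mtf2 lie at 0% for both marks in mES cells, and Phf1 carries H3K27me3 in HSPCs alone.

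Ezh2 (ENSMUSG00000029687.16; mm10 chromosome 6, 47530139 to 47595341, minus strand) and its paralogue Ezh1 (ENSMUSG00000006920.14; mm10 chromosome 11, 101191115 to 101226463, minus strand) encode the alternative catalytic subunits, of which EZH2 is known for dividing cells and EZH1 for resting ones. In mES cells H2AK119ub covered 39.03% and 41.6% of the Ezh2 promoter in WT cells and 40.7% and 38.6% in KO cells. In HSPCs it covered 61.2% and 49.9% in WT cells and 68.1% and 73.2% in KO cells, all above the mES values. For H2AK119ub the Ezh1 promoter ranged from 25.04% to 70.7% in mES cells, and in HSPCs from 31.9% to 67.5%, so that the cell types overlapped. Over the gene body the paralogues differed: H2AK119ub covered 10.7% to 17.8% of the Ezh1 span in the mES libraries and 15.4% to 27.7% in the HSPC libraries, but 0.529% to 2.79% of the Ezh2 span in all 8 libraries. The 2 Mb around the Ezh1 start were under H2AK119ub peaks over 34.4% to 38.01% of their length and those around the Ezh2 start over 6.47% to 10.8%.

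Phf1 (ENSMUSG00000024193.8; mm10 chromosome 17, 26933052 to 26937908, plus strand) is the shortest member, at 4857 bp, and encodes a Polycomb-like subunit. H2AK119ub covered 85.1% and 72.7% of its promoter in WT mES cells, 77.2% and 70.5% in KO mES cells, and 100% in all 4 HSPC libraries, where 100% of the gene span was covered as well. In mES cells Phf1 had no H3K27me3 peak, and the nearest lay 6287 to 11528 bp from its start. In HSPCs H3K27me3 covered 38.7% and 46.2% of the promoter in WT cells and 57.6% and 50.2% in KO cells. Phf1 lies in a region rich in H2AK119ub peaks, which covered 40.2% to 44.2% of the 2 Mb around its start in the 8 libraries. When every coding start of the gene was considered and the best covered taken, the Phf1 promoter had 90.9% to 100% in mES cells, and the H2AK119ub difference between the cell types was 4.62 points.

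Jarid2 (ENSMUSG00000038518.15; mm10 chromosome 13, 44729474 to 44921643, plus strand) encodes a DNA-binding subunit, and Aebp2 (ENSMUSG00000030232.18; mm10 chromosome 6, 140622663 to 140678472, plus strand) a zinc-finger subunit. H2AK119ub covered 82.3% and 38.6% of the Jarid2 promoter in WT mES cells and 48.5% and 32.4% in KO, and 51.9%, 61.3%, 58.0% and 49.4% in the HSPC libraries, within the mES range. No H3K27me3 peak was called at the Jarid2 promoter in mES cells, and such peaks covered 25.04% in HSPC WT replicate 1 and 54.1% in HSPC KO replicate 2. At the best covered of the 8 coding starts of Jarid2, the last of them 111217 bp downstream of the annotated start, H3K27me3 was called in all 4 HSPC libraries, over 25.04% to 79.6%, and in no mES library. The Aebp2 promoter ranged from 38.5% to 86.0% for H2AK119ub in mES cells, and in HSPCs from 59.2% to 100%. At the best covered start the HSPC values were 88.7% to 100%, above all 4 mES values.

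**Figure D4:**
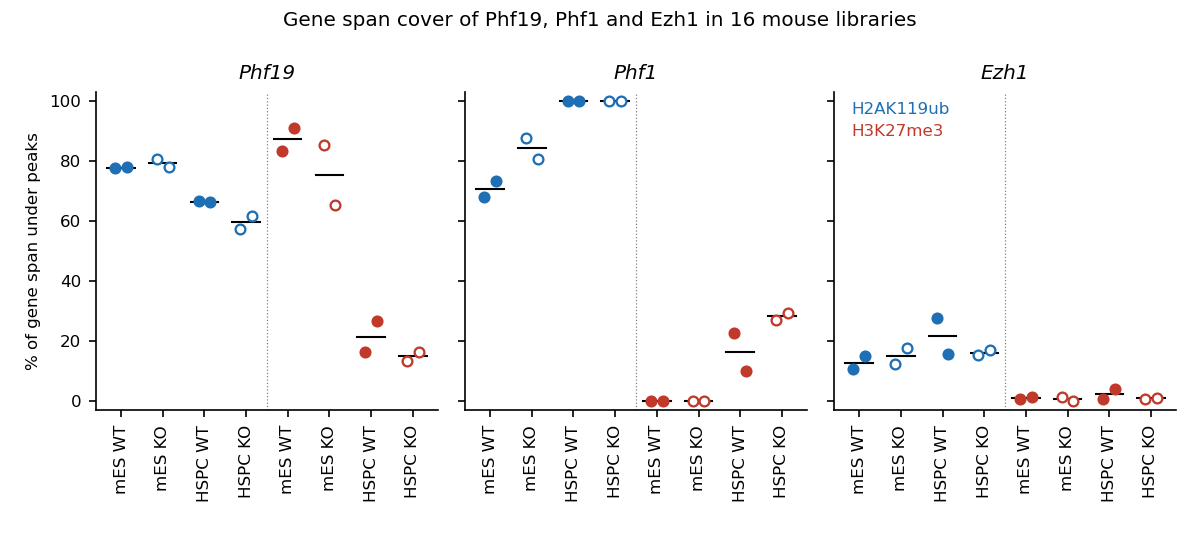
Percent of the gene span under peaks for Phf19, Phf1 and Ezh1, with H2AK119ub in blue on the left of each panel and H3K27me3 in red on the right. Points are libraries, filled for WT and open for KO, and bars are means of 2 libraries. Phf1 reaches 100% for H2AK119ub in HSPCs, and Phf19 is the gene whose H3K27me3 cover is high in mES cells and low in HSPCs.

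Comparing the marks within a cell type, H2AK119ub covered more of the members' promoters than H3K27me3. In mES cells 4 of 9 members were separated, with higher H2AK119ub cover at Phf1 (by 76.3 points), Aebp2 (50.6), Jarid2 (50.4) and Ezh2 (27.4). The background was 26.2% of genes higher and 5.51% lower, and the median difference was 27.4 points for the members and 0.306 for all genes. In HSPCs 5 members were separated, Aebp2 by 72.2, Phf1 by 51.8, Ezh2 by 41.1, Mtf2 by 29.8 and Ezh1 by 18.4 points, against 24% of genes higher and 9.82% lower. With only peaks of at least 1 kb, Phf1 was still separated in mES cells and Phf1 and Aebp2 in HSPCs, 1 and 2 members in place of 4 and 5. The Ezh1 difference was 11.4 points without H2AK119ub KO replicate 1. In HSPCs the lowest H2AK119ub value at Ezh1 was 31.9% and the highest H3K27me3 value 31.6%, so the marks were barely apart there. No member was separated with more H3K27me3 in either cell type (two-sided exact permutation test within genotype, p = 0.0556 for each separated member, adjusted p = 0.148 to 0.161).

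On the gene span, Phf1 (77.4 points) and Ezh1 (13.1) were separated in mES cells, against 24% of genes higher and 4.03% lower. In HSPCs Phf1 (77.7 points), Phf19 (44.9) and Ezh1 (17.3) were separated, against 27.5% higher and 9.69% lower. With only peaks of at least 1 kb the Ezh1 span differences were 8.88 points in mES cells and 9.48 in HSPCs. In mES cells the cover of Phf19 by the marks gave a difference of -2.68 points, H2AK119ub minus H3K27me3, with overlapping groups. The lists of the marks came from separate libraries with different antibodies and lengths, so the comparison is of where peaks were called and not of amounts.

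Loss of Tet2 was examined in 4 settings, of 2 KO against 2 WT libraries, in which the two-sided exact permutation test over 6 assignments cannot go below p = 0.333. In mES cells H2AK119ub at the Aebp2 promoter was the one separated member, 51.2% and 38.5% in WT and 58.3% and 86.0% in KO, a difference of 27.3 points (exact p = 0.333, adjusted p = 1). It was 13.5 points without KO replicate 2 and 41.1 points without KO replicate 1. The background was 7.21% of genes separated higher and 6.4% lower. Around Aebp2 the direction was opposite, with 7.58% and 7.099% of the 2 Mb around its start under H2AK119ub peaks in WT and 6.54% and 5.32% in KO. On the gene span Phf1 was separated, at 67.98% and 73.3% in WT and 87.6% and 80.7% in KO (13.5 points higher, against 3.23% of genes higher and 3.52% lower). Joining peaks within 1 kb reduced this to 3.15 points.

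H3K27me3 in KO mES cells was separated at 1 member promoter, that of Ezh2. A peak covered 25.04% of it in both WT libraries, the value of a single 501-bp peak, and none was called in either KO library, where the nearest peak lay 55118 and 55814 bp away. The KO minus WT difference was -25.04 points, against a background of 14.3% of genes lower and 1.46% higher. Limited to lists of equal length, taken in file order, the difference was -12.5 points and the groups overlapped. What the file order ranks is not known, so this cannot decide on the part of list length. The WT lists held 109577 and 120459 peaks over 189 and 232 Mb. The KO lists held 125318 and 102348 peaks over 214 and 149 Mb. No member was separated on the gene span, against 1.53% higher and 7.45% lower.

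In HSPCs 3 of the 9 members, all of them core genes, were separated with more H2AK119ub at the promoter in KO. The difference was 38.3 points for Suz12 (58.0% ± 20.9 in WT and 96.3% ± 3.43 in KO, SD, n = 2 each), 15.1 points for Ezh2 (55.5% ± 7.95 and 70.7% ± 3.604) and 14.6 points for Eed (59.7% ± 19.1 and 74.4% ± 1.27). Of all genes, 16.6% were separated higher and 3.83% lower, the highest background of the 4 settings for promoters that were higher in KO. WT replicate 2, the shortest H2AK119ub list of HSPCs, had the lowest value for all 3, and without it the differences were 23.6 points for Suz12, 9.495 for Ezh2 and 1.15 for Eed, of which Suz12 alone was still separated. Eed had 28.1 points without WT replicate 1. The remaining core gene, Ezh1, had 31.9% and 46.1% in WT and 67.5% and 40.3% in KO, so that its groups overlapped. On the gene span no member was separated, against 5.71% higher and 3.05% lower.

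For H3K27me3 in HSPCs, Ezh2 was lower and Phf1 higher in KO. The Ezh2 promoter had 31.6% and 31.4% in WT cells and 25.04% and 0% in KO cells, a difference of -18.97 points. Without KO replicate 2 the difference was -6.45 points and without KO replicate 1 it was -31.5. Phf1 was 11.4 points higher at the promoter and 11.9 points higher on the span, with 22.6% and 10.03% of the span covered in WT and 27.2% and 29.3% in KO. Phf1 promoter differences were 7.67 points without WT replicate 1 and 7.696 without KO replicate 1, no longer past 10 points, and the span difference was 5.61 points without WT replicate 2 and 18.2 without WT replicate 1. The background was 7.77% higher and 6.92% lower for promoters and 5.48% higher and 5.01% lower for spans.

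Pooled over both marks and cell types, no member differed between KO and WT at p = 0.05 in the two-sided exact permutation test within strata (smallest possible p = 0.00154). The closest were the spans of Phf19, with a KO minus WT difference of -5.94 points (exact p = 0.0509, adjusted p = 0.516), and Phf1, with 6.36 points (exact p = 0.0556, adjusted p = 0.516). Of all genes 3.47% had an unadjusted p below 0.05 at the promoter and 8.51% on the span, and 0 passed after Benjamini-Hochberg adjustment.

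In K562 cells 6 of the 9 orthologues, EZH2, EED, SUZ12, JARID2, MTF2 and PHF1, had no H2AK119ub peak at the promoter in any of the 4 libraries. Of all 20033 protein-coding genes 49.2% had none in any of them, so that an uncovered promoter was common in this cell line. PHF19 (ENSG00000119403.15; hg38 chromosome 9, 120855651 to 120894896, minus strand) had peaks across most of the gene, which took up 60.3% and 66.8% of the span after siControl and 73.2% and 79.7% after siMBD6 and placed it at the 91.9 to 93.5 percentile of all genes. Its annotated start itself was mostly outside the peaks, which began 309 to 410 bp downstream in 3 libraries, and promoter cover was 34.6% and 32.3% after siControl and 29.5% and 69.2% after siMBD6. At the best covered of its coding starts the values were 85.2% and 78.1% after siControl and 100% and 100% after siMBD6. No other member had more than 8.69% of its span under peaks in K562.

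EZH1 (ENSG00000108799.13; hg38 chromosome 17, 42700275 to 42745049, minus strand) had a peak at the promoter in all 4 libraries, with 25.04% and 71.6% covered after siControl and 95.1% and 67.4% after siMBD6. AEBP2 (ENSG00000139154.16; hg38 chromosome 12, 19404045 to 19720801, plus strand) had 3.598% and 59.6% after siControl and 36.7% and 72.01% after siMBD6. For both the groups overlapped. JARID2 had peaks inside the gene, on 0.545% and 0.954% of the span after siControl and 1.801% and 1.81% after siMBD6. EZH2, EED, SUZ12, MTF2 and PHF1 had no peak on the span in any library.

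**Figure D5:**
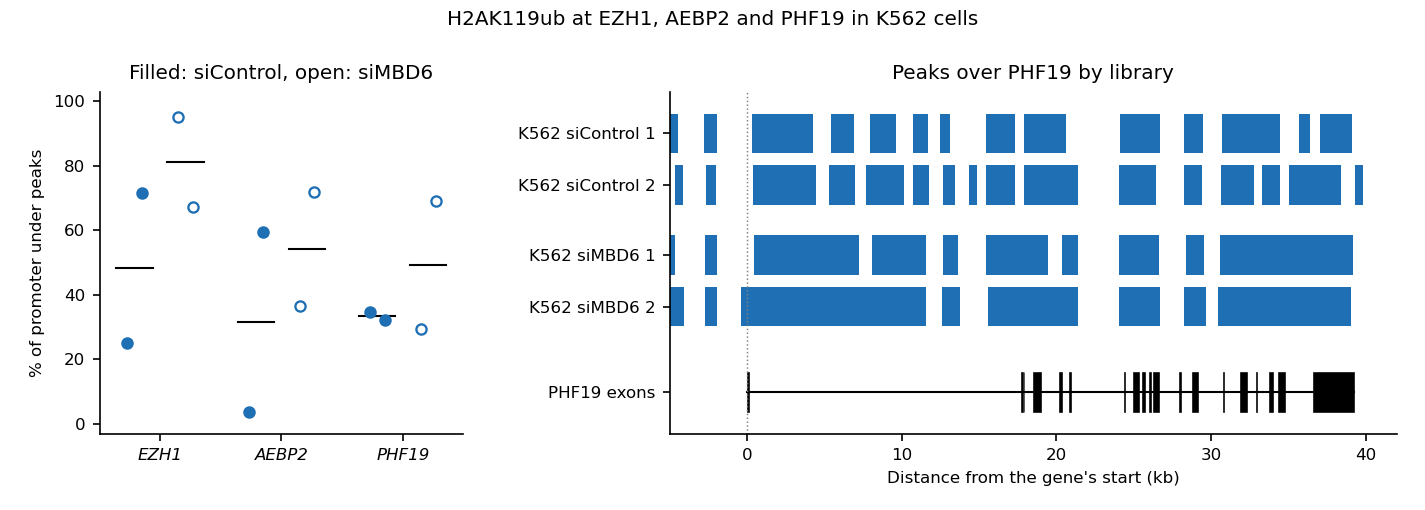
H2AK119ub in K562 cells. On the left, percent of the promoter under peaks for EZH1, AEBP2 and PHF19, with points for libraries (filled for siControl, open for siMBD6) and bars for means of 2. On the right, the peaks over PHF19 in each library by distance in kb from the start, with exons in black. The promoter values of the groups overlap for all 3 genes, and the peaks over PHF19 join into longer runs in the siMBD6 libraries.

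After siMBD6, no member promoter was separated at the annotated start, against 11.5% of genes higher and 1.49% lower. At the best covered coding start PHF19 was separated, with 85.2% and 78.1% after siControl and 100% and 100% after siMBD6. The share of all genes separated by that measure is not reported here, so this does not set PHF19 apart from other genes. Among all genes these values were at the 91.5 and 90.2 percentile after siControl and 95.1 and 94.9 after siMBD6. On the span PHF19 was separated, 12.9 points higher (63.6% ± 4.58 in siControl and 76.4% ± 4.57 in siMBD6, SD, n = 2 each, exact p = 0.333 by two-sided permutation and adjusted p = 0.928), against 14% of genes higher and 0.215% lower. Without siControl replicate 1 or siMBD6 replicate 2 the difference was 9.62 points, and with peaks within 1 kb joined it was 3.31. The siMBD6 lists were longer as a whole, with 178 and 190.2 Mb covered against 132 Mb in both siControl lists, and the 2 Mb around PHF19 had 17.05% and 17.6% under peaks against 13.2% and 12.4%.

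Other genes of the pathway were read from a fixed list: the histone-binding subunits Rbbp4 and Rbbp7, the accessory subunits Epop, Lcor and Lcorl, the PRC2 inhibitor EZHIP, which was matched in the human annotation alone, and the H3K27 demethylases Kdm6a and Kdm6b. Of the 7 mouse genes, 4 were separated and higher in HSPCs for H2AK119ub at the promoter, against 15.4% of all genes, namely Rbbp7 (by 40.4 points), Kdm6a (39.3), Lcorl (37.4) and Rbbp4 (32.1). For H3K27me3 3 were higher, against 22.7% of all genes, Epop by 100 points, Rbbp4 by 53.9 and Kdm6a by 51.5. Epop was under H3K27me3 peaks over 100% of its promoter and span in all 4 HSPC libraries and 0% in all 4 mES libraries. In mES cells its promoter was under H2AK119ub peaks by 46.03% and 70.3% in WT cells and by 70.6% and 100% in KO cells.

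Between genotypes, 3 of the 7 were separated and higher in KO mES cells for H2AK119ub promoters, Epop by 27.1, Lcorl by 11.2 and Kdm6a by 11.1 points, against 7.21% of all genes. Epop ranged from 12.4 points without KO replicate 2 to 41.9 without KO replicate 1, with 15.02 without WT replicate 1. On the gene span Epop was 28.2 points higher, and 25.7 to 30.6 without 1 library, against 3.23% of genes higher and 3.52% lower. The promoters of the others were under 10 points without 1 library. Lcorl had 7.05 without WT replicate 1 and 8.22 without KO replicate 1, and Kdm6a 8.45 without KO replicate 2. For H3K27me3 Lcorl was lower, at 56.1% and 62.4% in WT cells and 45.6% and 41.9% in KO cells, as were 14.3% of all genes. In HSPCs 4 were higher for H2AK119ub in KO, Kdm6a by 47.8, Rbbp7 by 24.4, Lcorl by 15.4 and Rbbp4 by 15.2 points, against 16.6% of all genes. Of these, Kdm6a stayed separated without any 1 library. Rbbp4 was at 9.62 points without WT replicate 1. Rbbp7 was at 9.77 without KO replicate 1 and 39.01 without KO replicate 2, and Lcorl at 3.15 without WT replicate 2 and 27.6 without WT replicate 1. For H3K27me3 promoters Kdm6a was 38.9 and Rbbp7 37.7 points higher in KO (7.77% of all genes higher, 6.92% lower), with 20.3 points for Rbbp7 without KO replicate 1. The Kdm6b promoter had 37.9% and 32.3% in WT cells and 25.04% and 0% in KO cells. Its difference of -22.6 points was -10.1 without KO replicate 2 and -35.1 without KO replicate 1. On the gene span Kdm6b gave -17.5 points, and -22.1 to -12.96 without 1 library. Rbbp7 gave 24.3 points there, and 23.4 to 25.2 without 1 library. The span background was 5.48% of genes higher and 5.01% lower. Kdm6a and Rbbp7 are on chromosome X, where H3K27me3 peaks covered 1.05 and 1.07 Mb in the WT and 24.3 and 21.7 Mb in the KO HSPC lists, and H2AK119ub peaks 0.541 and 0.329 Mb in WT and 2.51 and 2.69 Mb in KO, and the part of this in their values was not tested. In K562, KDM6B was the sole gene of the 8 with a promoter peak, with 68.5% and 100% covered after siControl and 100% in both libraries after siMBD6.

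Finally, genes with promoter cover most like that of Aebp2 and Phf1, the members with the widest range, were sought over the 16 mouse libraries. For Phf1 they were Chmp2a, Gm20219 and Necab3, with root mean square differences of 6.46, 7.39 and 7.79 points. For Aebp2 they were Tsc22d4, Zdhhc8 and Prune1, with 13.4, 13.5 and 13.6 points. No other protein-coding start lay within the promoter window of any member, and the nearest was that of Cuta, 6517 bp from the start of Phf1.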

How the data were processed

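CUT&Tag peak lists of 20 libraries were used as deposited. The authors trimmed reads with Trimmomatic 0.39 and aligned them with Bowtie2 2.4.1 to mm10 or hg38 with Drosophila spike-in. Their methods name MACS2 in broad mode, whereas the labels name HOMER 4.9, and which of them made the lists is not given in the sources used here. Each deposited list holds the chromosome, start and end of peaks, with no other value, and spike-in scaling does not act on positions. Percent cover of promoters and gene spans was computed here from GENCODE genes on assembled chromosomes (Python 3.11.15, numpy 2.4.6, pandas 2.3.3, checked against bedtools 2.31.1 and on simulated data). Comparisons used two-sided exact permutation tests over libraries, with Benjamini-Hochberg adjustment over all protein-coding genes. Separated differences are descriptions, since 2 against 2 libraries cannot pass 0.05. All 9 members and the pathway list were named, and the 3 most similar genes of the 2 members of widest range. The members and lists were chosen with earlier results of these data known. Same-numbered libraries did not deviate in the same direction (correlations from -0.30 to 0.04 over genes), so replicate numbers were taken as names. For H3K27me3 in mES cells they deviated in opposite directions, with -0.14 at promoters and -0.30 on spans. The marker check of K562 is not reported here.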

Additional observations from a re-analysis of the deposited data

Results flagged for a closer look

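For 2 members, the KO minus WT differences in H2AK119ub over the gene span were flagged, with opposite signs in HSPCs and mES cells. For Phf19 the span cover differed between KO and WT by 1.59 points in mES cells and by -6.85 points in HSPCs, a difference between the effects of -8.44 points. In mES cells the Phf19 values were 77.5% and 77.9% in WT and 80.6% and 77.99% in KO. For Aebp2 the values were 4.04 points in mES cells and -2.41 points in HSPCs, a difference of -6.46 points. Both had the smallest p that this two-sided exact permutation test over 36 arrangements can give, 0.0556, and an adjusted p of 1 over all genes. Of 21938 genes 0 had an adjusted p below 0.05, and the share at the smallest p is not reported here.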

How the results depend on the processing

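None of the separated differences reversed under any alternative. Counts here and in the next paragraph are of separated members. The shares of all genes separated under these settings are not reported here, so the counts do not compare the members with other genes. With only peaks of at least 1 kb, HSPC against mES promoters gave 1 for H2AK119ub and 0 for H3K27me3 (span 1), the marks 1 in mES (span 1) and 2 in HSPCs, and KO against WT for H3K27me3 0 in mES cells and 1 in HSPCs. With peaks within 1 kb joined, spans gave 0 for KO mES H2AK119ub, 2 for KO HSPC H3K27me3, 0 for siMBD6 (promoters 1) and 1 for HSPC against mES H2AK119ub. Lists of equal length, taken in file order, whose ranking is not known, gave 0 for H3K27me3 in KO mES promoters and 0 in KO HSPC spans. A promoter of 2 kb on each side gave 1 for KO HSPC H3K27me3 and 5 for HSPC against mES H3K27me3, and all coding starts gave 1 for siMBD6. With a smallest difference of 20 points, promoters gave 1 for KO HSPC H2AK119ub and 0 for KO HSPC H3K27me3, and spans 0 for KO mES H2AK119ub, KO HSPC H3K27me3 and siMBD6 and 1 for HSPC against mES H2AK119ub and the marks in mES. With any difference above 0, spans gave 3 and 1 for KO mES H2AK119ub and H3K27me3, 4 and 3 for KO HSPCs, 4 for siMBD6, 7 and 5 for HSPC against mES, and 4 and 6 for the marks in mES and HSPCs.

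Leaving out each library in turn gave, for promoters, 1 to 4 separated members for KO mES H2AK119ub, 1 to 2 for KO mES H3K27me3, 2 to 5 and 3 to 5 for KO HSPCs, 0 to 2 for siMBD6, 5 to 7 and 3 to 4 for HSPC against mES, and 4 to 5 and 5 to 7 for the marks. For spans it gave 1 to 1 and 0 to 1 in KO mES cells, 0 to 1 and 0 to 2 in KO HSPCs, 0 to 1 for siMBD6, and 2 or 3 elsewhere. The pooled Tet2 effect gave 0 to 0 members, and the difference between effects 0 to 1 for H2AK119ub and 0 to 0 for H3K27me3. With a replicate block, in which same-numbered libraries were paired, promoters gave 2 for KO mES H2AK119ub and 1 for siMBD6, and no other count moved by over 1.5 times. Crossing the numbers, an alternative chosen after seeing the data because same-numbered H3K27me3 libraries of mES cells deviated in opposite directions, gave 1 promoter and 1 span for KO mES H3K27me3. The labels do not say what a number shares. Leaving out libraries for the pathway genes was also chosen after seeing the data. The causes were not tested, except that fewer peaks enter with the 1 kb and equal-length settings. Depth is unknown, so that an absent peak cannot be told from one missed for want of reads.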
